A study of Mus musculus with 20 samples.

Results

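The livers of 8 mouse fetuses, taken from 2 control colonies, are compared here out of 20 profiled by bulk RNA sequencing at E17.5. In HetDam_HetFetus, dam and fetus are both labelled as heterozygous for Ppara (4 fetuses). In FloxDam_FloxFetus, dam and fetus both carry floxed Cpt2 alleles (Cpt2f/f) with no Cre (4 fetuses, called WT in their titles). All fetuses are labelled C57BL/6, each group holds 2 females and 2 males, and every dam had fasted for 24 h, so neither group is fed and neither is labelled wild type by genotype. The groups were chosen by label alone: every gene with a log2 value of at least 0 in at least 4 of the 20 libraries was compared, which left 11807 of 45802 listed genes, of which 11800 could be tested. Heterozygosity for Ppara, the floxed Cpt2 alleles and the colony of origin coincide in this design and cannot be told apart. A further pair of groups carries the same fetal genotypes but shares no library with the controls. It consists of Ppara heterozygous fetuses of Ppara knockout dams (KODam_HetFetus, 4) and floxed fetuses of Cpt2f/f; Albumin-Cre dams, in which the albumin promoter drives Cre in the liver (Cpt2LKODam_FloxFetus, 4). Ppara knockout fetuses of knockout dams (KODam_KOFetus, 4) are given beside them where the values bear on a gene.

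PPARA is a fatty acid sensor of the nuclear receptor family that drives lipid burning and ketogenesis when the liver is fasted, and CPT2 is the inner mitochondrial membrane enzyme that fatty acid oxidation needs for long chains. An engineered allele is usually kept by breeding, so a colony carries the segment of chromosome around it and whatever else separates that colony from another. The fetal liver at this age is both a growing metabolic organ and a site of blood formation, and holds hepatocytes beside red cell, granulocyte, mast cell and platelet precursors.

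The sequences of 2 gene pairs are shown first, because the 3 smallest adjusted p-values of the comparison belong to genes of these pairs and each pair is a gene and its processed copy. Rpl3 encodes a protein of the large ribosomal subunit and lies on chromosome 15 (chr15:80077781-80083406, GRCm38, minus strand), 5.65 Mb from Ppara (chr15:85734910-85806851). Rpl3-ps1 is a processed copy of it on the X chromosome (chrX:13202518-13203837). The annotated transcript of Rpl3-ps1 (1210 bases, GENCODE M21) aligned over its whole length to an Rpl3 transcript with 99.8% identity and 2 mismatches. Both mismatches fall in the Rpl3 coding sequence, C57A in exon 2 and T786C in exon 6, written as the Rpl3 base, the position counted from the first coding base, and the Rpl3-ps1 base. Of the 1136 windows of 75 bases in Rpl3-ps1, 75 being the read length, 1003 (88.3%) occur letter for letter in a transcript of Rpl3. The windows of 75 bases around each mismatch are given, with the differing base in capitals.
Rpl3, exon 2, chr15:80082492-80082566, minus strand: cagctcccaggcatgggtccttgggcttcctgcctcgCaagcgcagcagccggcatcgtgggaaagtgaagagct
Rpl3-ps1, chrX:13202591-13202665, plus strand: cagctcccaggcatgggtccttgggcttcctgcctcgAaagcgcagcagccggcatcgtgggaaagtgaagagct
Rpl3, exon 6, chr15:80079716-80079790, minus strand: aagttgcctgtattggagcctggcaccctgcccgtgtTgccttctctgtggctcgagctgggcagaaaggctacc
Rpl3-ps1, chrX:13203320-13203394, plus strand: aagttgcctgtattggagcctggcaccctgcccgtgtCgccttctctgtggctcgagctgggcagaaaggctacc

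The other pair is Tomm22, a subunit of the translocase that imports proteins through the mitochondrial outer membrane, and its processed copy Gm12906. Tomm22 lies on chromosome 15 (start 79670868), 6.06 Mb from Ppara. Gm12906 lies on chromosome 4 (chr4:107759440-107760473), 144 kb from Cpt2 (chr4:107903982-107923589). The transcript of Gm12906 matched Tomm22 over 438 aligned bases with 93.8% identity, 12 mismatches and 1 gap, so that only 5 of its 367 windows of 75 bases (1.36%) also occur in Tomm22. A stretch of the coding part of exon 1 of Tomm22 and the same stretch of Gm12906 are given, with differing bases and the 15 extra bases of Gm12906 in capitals.
Tomm22, exon 1, chr15:79670898-79671008, plus strand: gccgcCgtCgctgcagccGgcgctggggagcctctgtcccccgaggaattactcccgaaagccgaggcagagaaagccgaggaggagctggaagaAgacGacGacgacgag
Gm12906, chr4:107760337-107760462, minus strand: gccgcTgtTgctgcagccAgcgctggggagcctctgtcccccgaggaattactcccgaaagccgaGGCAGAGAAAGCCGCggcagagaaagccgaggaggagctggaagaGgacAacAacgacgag

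Between the control groups, 16 of 11800 genes differed (0.136% called, limma with Benjamini-Hochberg adjustment over all genes tested, adjusted p under 0.05): 7 were higher in HetDam_HetFetus (0.0593%) and 9 lower (0.0763%). All 16 had libraries that did not overlap between the groups, as did 1200 of all tested genes (10.2%, of which 55 or 0.466% of all genes were higher and 1145 or 9.7% lower). For called genes this comes from the same values as the call and is not separate support. By name, 11 of the 16 were pseudogenes or loci with a systematic name, though Gm16867 and Gm21451 among them are annotated as protein-coding. The share of such names among all tested genes was not counted. Of the 16, 14 differed by at least 2-fold in the values as deposited. Sizes depended on the processing, and the alternatives described at the end include adding a constant to the linear values. Over them, the smallest difference was 0.87 for Gm27177, 0.44 for Gm21451, 0.48 for Gm12906, -0.59 for Cd59b and -0.83 for Mcpt8. For Rpl3-ps1 it was 4.95 and for Rpl3 -1.26. The median difference of all tested genes was -0.15 on the log2 scale, and 72.9% of genes were lower in HetDam_HetFetus. HetDam_HetFetus libraries also listed a value for fewer genes, 24154 ± 624 (SD, n = 4) against 25317 ± 638 in FloxDam_FloxFetus, and the part of this in the median was not tested. With trimmed-mean scaling the median was -0.002, and 10 genes were called higher and 6 lower (62.5% higher, against 43.8% as deposited). After quantile normalization of the tested genes alone, it was -0.01 with 9 higher and 3 lower (75% higher). At an unadjusted p under 0.05, 85 genes were higher (0.72%) and 1861 lower (15.8%), so counts of lower genes at that level are read below against this background.

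**Figure D1:**
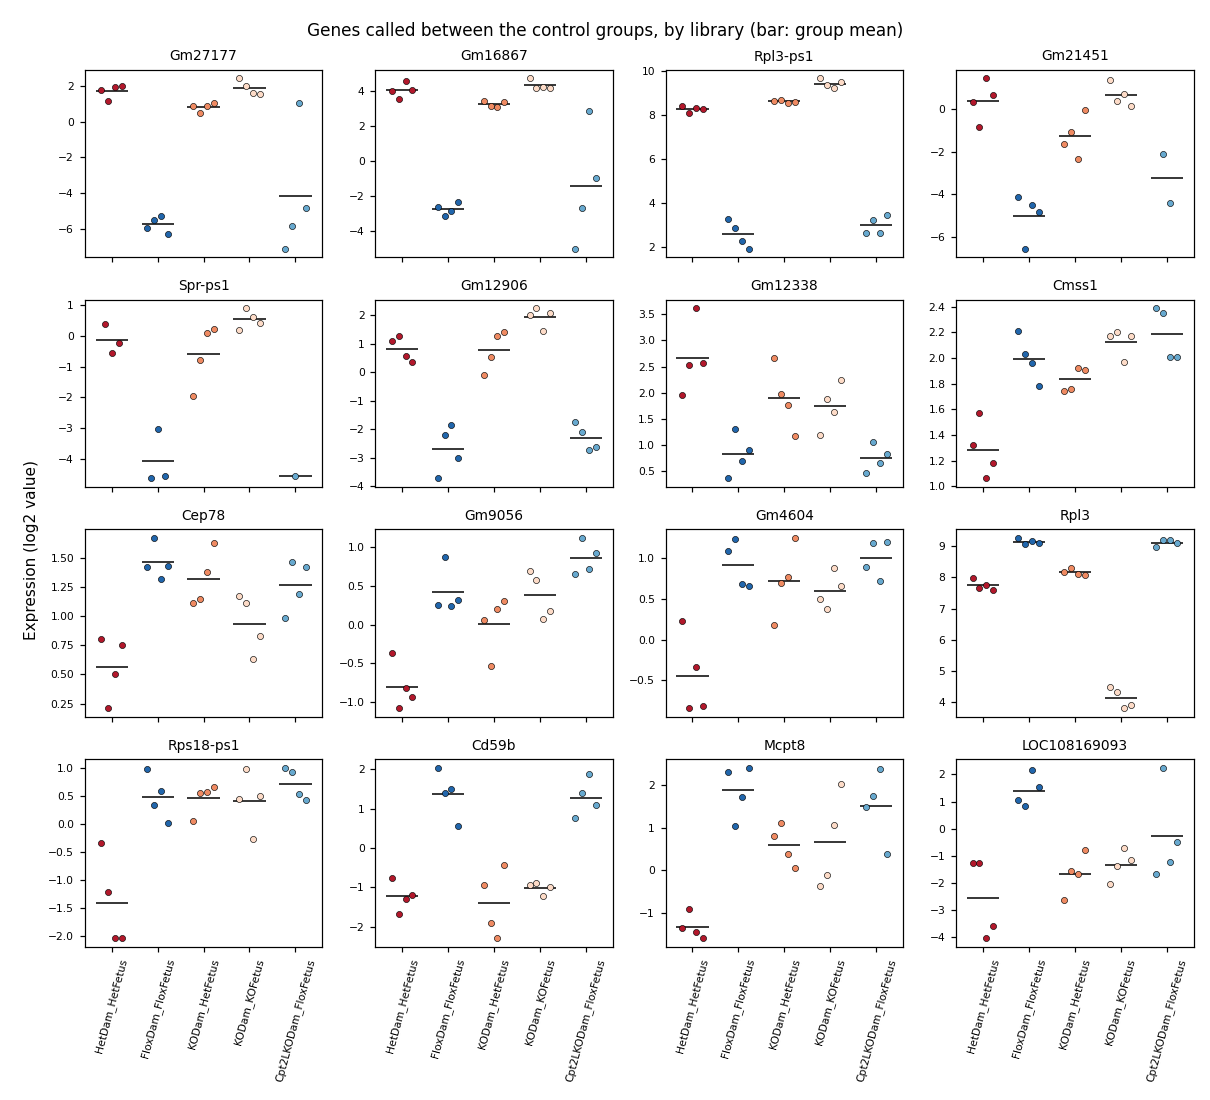
Log2 expression (vertical axes) of the 16 genes called between HetDam_HetFetus and FloxDam_FloxFetus, 1 panel per gene, in all 5 groups (horizontal axis); points are libraries and bars group means. The first 2 groups, whose values gave the calls, do not overlap in any panel. Cpt2LKODam_FloxFetus replicate 3 stands high for Gm16867 (2.86) and Gm27177 (1.03).

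Rpl3-ps1 had the smallest p-value of all genes. Its log2 values were 8.40, 8.10, 8.31 and 8.27 in HetDam_HetFetus and 3.25, 2.86, 2.27 and 1.92 in FloxDam_FloxFetus. The difference was 5.69 ± 0.224 (SE, adjusted p = 4.09e-12), and the lowest heterozygous library lay far above the highest floxed one. Rpl3 itself moved the other way, at 7.98, 7.66, 7.76 and 7.58 against 9.27, 9.07, 9.18 and 9.10, a difference of -1.41 ± 0.131 (adjusted p = 9.02e-06). Rpl3 was the only called gene among 80 tested genes of the cytosolic ribosomal protein list.

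The sum of the 2 genes was compared next. Rpl3 and Rpl3-ps1 together, summed as linear values, stood at 9.03 ± 0.133 (log2, SD, n = 4) in HetDam_HetFetus and 9.17 ± 0.0931 in FloxDam_FloxFetus. The sums differed by -0.14, and an exact two-sided permutation test of the 8 libraries gave p = 0.143, where the smallest p this design allows is 0.0286. The p adjusted over the 6 gene pairs summed in this way was 0.172, and the pairs were picked after their values were seen. Rpl3-ps1 made up 57.1%, 57.6%, 59.4% and 61.8% of the sum in the HetDam_HetFetus libraries. In the FloxDam_FloxFetus libraries it made up between 0.683% and 1.51%. The share thus separated the colonies without overlap, while the sums did overlap.

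The same pair in the other groups followed the Ppara label of the fetus. In KODam_HetFetus, Rpl3-ps1 stood at 8.62, 8.69, 8.55 and 8.60 and made up 57.8% of the sum on average. In KODam_KOFetus it stood at 9.67, 9.35, 9.21 and 9.48 and made up 97.5%, while Rpl3 stood at only 4.49, 4.32, 3.79 and 3.90. In Cpt2LKODam_FloxFetus it stood at 2.63, 3.22, 2.62 and 3.45 and made up 1.43%. The mean share was therefore near 0 in both floxed groups, near the middle in both heterozygous groups and near the whole in the knockout group. Whether the deposited values are per length is not stated, so the shares describe these values and not numbers of molecules.

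**Figure D2:**
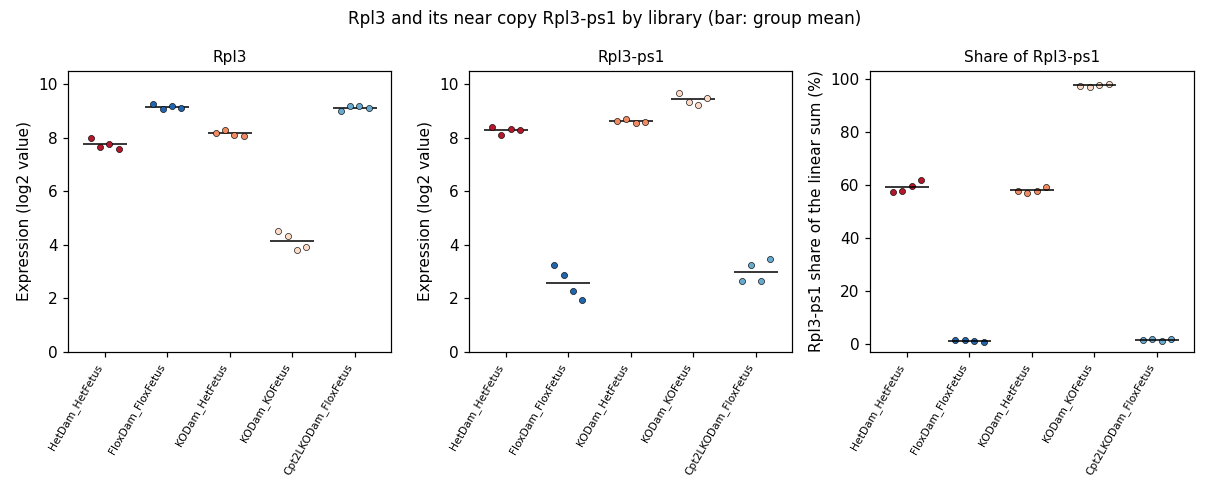
Log2 expression of Rpl3 (left) and Rpl3-ps1 (middle), and the share of Rpl3-ps1 in their linear sum in percent (right), in the 5 groups; points are libraries and bars group means. The mean share is 59% and 57.8% in the heterozygous groups of heterozygous and knockout dams, 97.5% in the knockout group, and 1.09% and 1.43% in the floxed groups.

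Gm12906, the copy of Tomm22 shown above, stood at 1.10, 1.29, 0.56 and 0.37 in HetDam_HetFetus and at -3.73, -2.22, -1.85 and -3.0 in FloxDam_FloxFetus. It was higher by 3.53 ± 0.4 (adjusted p = 1.48e-04). It was highest in KODam_KOFetus, at 2.01, 2.26, 1.46 and 2.07, and low in Cpt2LKODam_FloxFetus, at -1.76, -2.08, -2.73 and -2.61. Tomm22 had values of 5.80, 5.87, 5.85 and 5.61 against 6.25, 6.26, 5.97 and 6.05, which do not overlap either. Its difference of -0.35 ± 0.13 did not pass the test (adjusted p = 0.211). Gm12906 made up 3.19% of the sum of both genes in HetDam_HetFetus, 0.252% in FloxDam_FloxFetus and 6.71% in KODam_KOFetus. Unlike those of the Rpl3 pair, the sums of Tomm22 and Gm12906 did not overlap, at 5.85, 5.93, 5.89 and 5.65 (log2) against 6.25, 6.27, 5.97 and 6.06. They differed by -0.31 (exact two-sided permutation p = 0.0286, the smallest this design allows, and 0.171 adjusted over the 6 pairs).

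Further called genes were copies of other expressed genes. Gm12338 (chr11:75599634-75600231) is identical over its 192 annotated bases to Cox7c, a subunit of cytochrome c oxidase, so all 118 of its windows of 75 bases occur in Cox7c transcripts and the genes cannot be told apart by such reads. Gm12338 stood at 1.95, 2.53, 3.62 and 2.56 against 0.36, 1.31, 0.70 and 0.91, a rise of 1.84 ± 0.329 (adjusted p = 0.0226). Cox7c itself differed by -0.27 ± 0.146 (adjusted p = 0.352). Gm12338 was no longer called without HetDam_HetFetus replicate 3 (adjusted p = 0.0983) or 4 (0.0733), or FloxDam_FloxFetus replicate 1 (0.115), 3 (0.0507) or 4 (0.0616).

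Rps18-ps1 (chr4:71370695-71371217) is a copy of Rps18, a protein of the small ribosomal subunit, with 98.3% identity over 459 bases and 8 mismatches. Its values were -0.34, -1.22, -2.04 and -2.04 in HetDam_HetFetus and 0.99, 0.35, 0.60 and 0.03 in FloxDam_FloxFetus. The difference was -1.90 ± 0.34 (adjusted p = 0.0226), and Rps18 differed by -0.22 ± 0.143 (adjusted p = 0.46). Rps18-ps1 was not called after quantile normalization of the tested genes (adjusted p = 0.106), nor without HetDam_HetFetus replicate 3 (adjusted p = 0.115) or 4 (0.0961), or FloxDam_FloxFetus replicate 1 (0.115), 2 (0.0563) or 3 (0.0507), and the difference was -0.26 ± 0.34 between the experimental groups. Spr-ps1 (chr6:85154983-85155971), which aligns to Spr, the sepiapterin reductase gene of tetrahydrobiopterin synthesis, over 603 bases with 90.2% identity, was listed at 0.39, -0.56 and -0.23 against -4.65, -3.04 and -4.58. Replicate 2 of both groups has no value for it, so n = 3. It was higher by 3.96 ± 0.606 (adjusted p = 0.0171), and the call did not hold with replicate number as a block (adjusted p = 0.0658). It did not hold either with blanks set to the lowest value (0.617), or without HetDam_HetFetus replicate 3 (0.0521) or 4 (0.0733), or FloxDam_FloxFetus replicate 1 (0.107) or 4 (0.0697).

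A cluster of 3 called genes lay together on chromosome 14, and they had some of the largest differences. Gm16867 (chr14:69363290-69504080), Gm21451 (chr14:69390417-69477453, inside the span of Gm16867) and Gm27177 (chr14:69581540-69640470) are annotated in a region of repeated genes beside Entpd4 and Loxl2. The transcript of Gm27177 is identical to Gm16867 over all 2946 bases, and 1133 bases of Gm16867 are identical to Entpd4 on the opposite strand. Gm21451 is identical over 2348 bases to Loxl2, which encodes a collagen cross-linking enzyme. Reads from these stretches have more than one exact source, so values of the single loci are uncertain.

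Gm16867 stood at 4.02, 3.53, 4.58 and 4.07 in HetDam_HetFetus and at -2.63, -3.17, -2.89 and -2.36 in FloxDam_FloxFetus, higher by 6.81 ± 0.954 (adjusted p = 0.00192). Gm27177 stood at 1.77, 1.16, 1.96 and 2.01 against -5.94, -5.49, -5.29 and -6.26, higher by 7.47 ± 1.06 (adjusted p = 0.00192). The floxed values of these genes are low, and over the alternatives run the difference ran from 0.87 to 7.66 for Gm27177 and from 2.32 to 7.02 for Gm16867. Gm21451 stood at 0.31, -0.86, 1.42 and 0.65 against -4.14, -6.52, -4.47 and -4.82, higher by 5.37 ± 0.675 (adjusted p = 0.00113), but it was not called with blanks set to the lowest value (0.172). Loxl2, with 2.40, 1.88, 2.03 and 2.46 against 1.22, 1.71, 2.27 and 2.03, overlapped between the groups (0.39 ± 0.194, adjusted p = 0.323). The Cpt2LKODam_FloxFetus libraries were not alike here: Gm16867 read -5.03, -2.73, 2.86 and -0.98 in replicates 1 to 4, and Gm27177 read -7.10, -5.81, 1.03 and -4.85. Replicate 3 of that group thus lay near the heterozygous level although it is labelled floxed.

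Cd59b and Cd59a are neighbouring genes on chromosome 2 (Cd59b: chr2:104069781-104085790) for inhibitors of the complement membrane attack complex, and align with 90.4% identity over 394 bases. Cd59b stood at -0.77, -1.67, -1.29 and -1.18 in HetDam_HetFetus and at 2.04, 1.40, 1.51 and 0.56 in FloxDam_FloxFetus. It was lower, by a difference of -2.60 ± 0.375 (adjusted p = 0.00209). Cd59a had values of 4.96, 4.96, 5.04 and 4.55 against 3.28, 4.79, 2.99 and 4.36, and its difference of 1.02 ± 0.465 was not called (adjusted p = 0.28). Cd59a was uneven in both floxed groups, with 2.34, 4.93, 2.94 and 4.89 in Cpt2LKODam_FloxFetus. Cd59b made up 1.48% of the sum of both genes in HetDam_HetFetus and 17.9% in FloxDam_FloxFetus, against 1.04% in KODam_HetFetus and 18% in Cpt2LKODam_FloxFetus.

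Mcpt8, a serine protease known as a marker of basophils, was the called gene of a blood cell type. It stood at -1.36, -0.92, -1.45 and -1.60 in HetDam_HetFetus and at 2.32, 1.05, 1.73 and 2.41 in FloxDam_FloxFetus (chr14:56082163-56085499). The difference was -3.21 ± 0.467 (adjusted p = 0.00209). In bulk liver, fewer cells of a type and less RNA per cell cannot be told apart. In KODam_HetFetus, Mcpt8 stood at 0.81, 1.11, 0.37 and 0.06, between the control groups, and the experimental groups differed by -0.91 ± 0.467 (adjusted p = 0.179).

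Of 14 genes on the mast cell and basophil list, 7 were tested and Mcpt8 alone was called, 1 lower and 0 higher. The median difference of the 7 was -0.71, against -0.15 over all tested genes, and it was -0.57 with trimmed-mean scaling and -0.34 after quantile normalization of the tested genes. Prss34, a basophil serine protease, read -1.06, -0.76, -0.70 and -0.92 against 1.79, 0.55, 1.67 and 1.77, with no overlap. Its difference of -2.31 ± 0.476 was not called (adjusted p = 0.0574). Cpa3, the mast cell carboxypeptidase, read -1.10, -0.08, -0.98 and -0.97 against 0.51, 0.31, 0.26 and 0.90 (-1.28 ± 0.318, adjusted p = 0.105). The other 4 tested genes of the list overlapped between the groups. Gata2, a transcription factor of blood progenitors, differed by -0.71 ± 0.318 (adjusted p = 0.266), and Il1rl1, the interleukin-33 receptor, by -0.46 ± 0.351 (0.525). Hdc, the histamine-forming enzyme, differed by -0.21 ± 0.303 (0.772), and Kit, the stem cell factor receptor, by 0.20 ± 0.215 (0.682). The summed linear level of the list ran from 12.9 to 15.1 in HetDam_HetFetus and from 16.1 to 26.7 in FloxDam_FloxFetus.

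**Figure D3:**
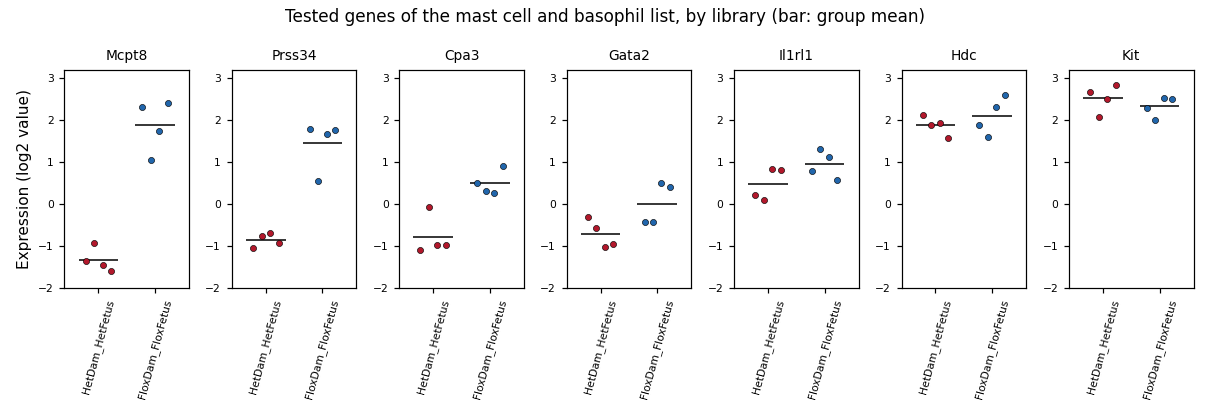
Log2 expression (vertical axes) of the 7 tested genes of the mast cell and basophil list in the 4 libraries of each control group; points are libraries and bars group means. Mcpt8, Prss34 and Cpa3 do not overlap between the groups, while Gata2, Il1rl1, Hdc and Kit do.

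The remaining 5 called genes all read lower in HetDam_HetFetus, and each call was lost when any 1 of several libraries was left out. Cmss1 (chr16:57301999-57606867) stood at 1.32, 1.57, 1.06 and 1.18 against 2.21, 2.03, 1.96 and 1.78, a difference of -0.71 ± 0.133 (adjusted p = 0.0333). Cep78, a centrosomal protein (chr19:15955768-15985700), stood at 0.80, 0.21, 0.50 and 0.75 against 1.42, 1.67, 1.32 and 1.43, a difference of -0.90 ± 0.173 (adjusted p = 0.0395). Gm9056 (chr19:37233603-37234560) differed by -1.22 ± 0.232 (adjusted p = 0.0348), Gm4604 by -1.35 ± 0.249 (0.0302) and LOC108169093 by -3.93 ± 0.744 (0.0348). LOC108169093 was uneven among the heterozygous fetuses, at -1.27, -1.25, -4.03 and -3.58, against 1.07, 0.84, 2.15 and 1.53.

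With replicate number as a block, 4 of these 5 were not called, at adjusted p = 0.0719 for Cep78, 0.0724 for Gm9056, 0.0724 for Gm4604 and 0.0595 for LOC108169093. With trimmed-mean scaling, Cmss1 (-0.56, adjusted p = 0.233), Cep78 (-0.75, 0.0568) and Gm9056 (-1.07, 0.0568) were not called, and after quantile normalization of the tested genes none of the 5 was, with adjusted p from 0.0645 for LOC108169093 to 0.343 for Cmss1. Leaving out a library ended calls as well. Cmss1 was not called without HetDam_HetFetus replicate 3 (adjusted p = 0.172) or 4 (0.113), or FloxDam_FloxFetus replicate 1 (0.153), 2 (0.0894) or 3 (0.0545). Cep78 was lost without any 1 of 7 of the 8 libraries (HetDam_HetFetus replicate 1 is the exception), Gm9056 likewise, LOC108169093 without any but HetDam_HetFetus replicates 1 and 2, and Gm4604 without HetDam_HetFetus replicates 2, 3 or 4 or FloxDam_FloxFetus replicates 1 or 2. Adjusted p-values of these 4 genes reached 0.172 in such fits. FloxDam_FloxFetus replicates 3 and 4 share a number in their descriptions that may mark a litter. With that number as a random block these 5 genes were not called (adjusted p from 0.0551 for Gm4604 to 0.0816 for LOC108169093), nor were Gm12338 (0.0666), Rps18-ps1 (0.0613) and Spr-ps1 (0.0666), and the other 8 of the 16 were. Rpl3, Rpl3-ps1, Gm12906, Gm16867, Gm21451, Gm27177, Cd59b and Mcpt8 were called without each of the 8 libraries in turn.

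The engineered genes were not themselves called. Ppara stood at 2.94, 2.86, 3.47 and 3.25 in HetDam_HetFetus and at 2.96, 2.88, 3.68 and 3.71 in FloxDam_FloxFetus, a difference of -0.18 ± 0.264 (95% interval -0.73 to 0.38, adjusted p = 0.776). The groups overlapped. Cpt2 is floxed in FloxDam_FloxFetus, and the titles of HetDam_HetFetus name no change of it. Cpt2 stood at 4.06, 3.66, 3.92 and 3.77 against 3.90, 3.61, 4.26 and 4.23 (-0.15 ± 0.162, 95% interval -0.49 to 0.19, adjusted p = 0.682). Whether reads of Ppara fall inside the deleted part is not given in the sources used here, so neither gene checks the genotype labels.

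Around Ppara, 1 of 203 tested genes within 10 Mb was called, Rpl3, and 36 (17.7%) had an unadjusted p under 0.05, against 16.5% of all tested genes. Around Cpt2, 1 of 104 was called, Gm12906, and 22 (21.2%) had an unadjusted p under 0.05. Within 5 Mb, 0 of 87 genes around Ppara and 1 of 44 around Cpt2 were called, with 15 and 10 at an unadjusted p under 0.05. Among the genes near Ppara just outside the threshold were Apobec3, which restricts retroviruses by editing cytosine, and Cenpm, a centromere protein. Apobec3, 5.82 Mb from Ppara, read 1.88, 1.94, 1.69 and 1.75 against 2.50, 2.79, 2.78 and 2.62, without overlap (-0.86 ± 0.194, adjusted p = 0.0819). Cenpm, 3.49 Mb away, differed by -0.81 ± 0.183 (adjusted p = 0.0819). Apobec3 was lower between the experimental groups (-1.23 ± 0.194, adjusted p = 0.00647) and stood at 0.19, 0.19, -0.67 and -0.18 in KODam_KOFetus, below both heterozygous groups. By chromosome, only genes with a known position were counted. Of the 11807 genes that met the minimum, 11237 had one, and the called Gm4604 and LOC108169093 did not. Chromosome 14 held 4 of the called genes with a position and 398 of the tested ones. Of its called genes, Gm16867, Gm21451 and Gm27177 lie in the region of repeated genes described above. The share of genes at an unadjusted p under 0.05 was highest on the X chromosome (24.1% of 336).

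Of the genes called between the control groups, 9 were called in the same direction between KODam_HetFetus and Cpt2LKODam_FloxFetus, and 0 in the opposite direction. The experimental groups differed in 1055 of 11804 genes (8.94%, 472 or 4% higher and 583 or 4.94% lower), and their dams differ in which gene was deleted. Both comparisons come from one fit and use the same estimate of each gene's spread. The calls are thus not independent, although no library is shared. With only the groups compared in each fit, 10 genes were called between the experimental groups and 3 were shared. The 9 genes of the fit to all libraries were Rpl3, Rpl3-ps1, Gm12906, Gm16867, Gm27177, Spr-ps1, Gm12338, Cd59b and Gm9056. Their experimental differences were -0.96 ± 0.131 for Rpl3, 5.64 ± 0.224 for Rpl3-ps1, 3.08 ± 0.4 for Gm12906 and -2.67 ± 0.375 for Cd59b. For Gm16867, Gm27177 and Spr-ps1 they were 4.73 ± 0.954, 5.02 ± 1.06 and 3.97 ± 0.83, Spr-ps1 having a value in only 1 library of Cpt2LKODam_FloxFetus. Of the 16 genes, 15 had the same sign in both comparisons, and Cep78 was the exception (0.05 ± 0.173 between the experimental groups).

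A test of whether the colony difference itself differed between control and experimental fetuses called 0 of 11798 genes, with a smallest adjusted p of 0.0992, although 2343 (19.9%) had an unadjusted p under 0.05. With array weights, in which limma gives less weight to libraries with more scatter, that test called 556 genes, and without Cpt2LKODam_FloxFetus replicate 4 it called 421. The number called between the experimental groups also rested on single libraries: it was 11 without KODam_HetFetus replicate 1, 15 without replicate 2, 20, 19 and 55 without Cpt2LKODam_FloxFetus replicates 1, 2 and 3, and 2624 without replicate 4. The number of shared genes ran from 4 to 11 over these fits. It was 5 and 4 without KODam_HetFetus replicates 1 and 2, and 4 without Cpt2LKODam_FloxFetus replicate 1 or 2. KODam_HetFetus replicates 1 and 2 also share a number in their descriptions that may mark a litter. With that number as a random block, 11 genes were called between the experimental groups.

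**Figure D4:**
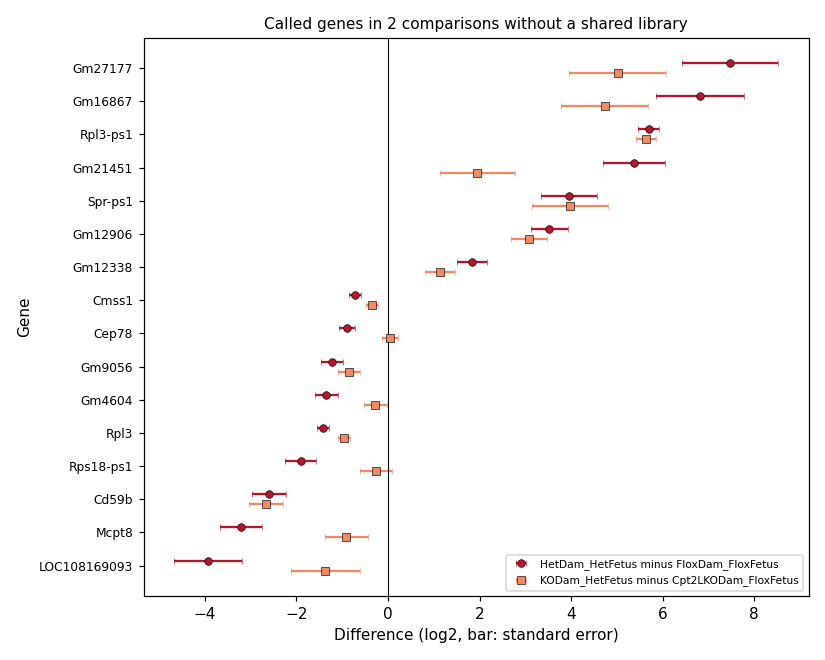
Difference in log2 expression (horizontal axis, bars are standard errors) of the 16 called genes in HetDam_HetFetus minus FloxDam_FloxFetus (circles) and in KODam_HetFetus minus Cpt2LKODam_FloxFetus (squares). Rpl3-ps1 (5.69 and 5.64), Spr-ps1 (3.96 and 3.97) and Cd59b (-2.60 and -2.67) lie nearly together, while Gm21451 (5.37 and 1.95) and Mcpt8 (-3.21 and -0.91) lie apart.

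Genes of fasting metabolism were not called. Of 50 tested canonical PPARA targets, 0 were called in either direction, and the median difference was -0.19 against -0.15 over all genes. At an unadjusted p under 0.05, 5 were lower and 0 higher. The largest difference belonged to Acaa1b, a peroxisomal thiolase of fatty acid oxidation, at 2.63, 2.54, 2.25 and 2.12 against 4.02, 2.92, 3.37 and 3.78 (-1.14 ± 0.288, adjusted p = 0.109). Its libraries did not overlap. Cyp4a14, a fatty acid omega-hydroxylase, differed by -1.02 ± 0.889 (adjusted p = 0.59) and scattered widely, from 0.21 to 3.75 in HetDam_HetFetus.

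Ehhadh, the peroxisomal bifunctional enzyme, read 3.93, 3.63, 3.89 and 3.50 against 4.21, 3.17, 4.23 and 4.6 (-0.32 ± 0.262, adjusted p = 0.568). The groups overlapped. Pdk4, a kinase that restrains pyruvate oxidation, differed by 0.68 ± 0.389 (adjusted p = 0.383), and Angptl4, a lipoprotein lipase inhibitor, by 0.34 ± 0.23 (0.475). Slc25a20, the carnitine-acylcarnitine carrier of mitochondria, differed by -0.37 ± 0.158 (0.25). Among 22 tested genes of mitochondrial beta-oxidation, 21 had a 95% interval within 1 of 0 on the log2 scale, and the median was -0.05. The lists of ketone body genes (9 tested), cholesterol synthesis (25) and fatty acid and triglyceride synthesis (23) had 0 called genes and medians of -0.07, -0.03 and -0.02, with 1, 0 and 2 lower at an unadjusted p under 0.05.

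Over all 53 gene lists, only the cytosolic ribosomal protein list and the mast cell and basophil list held a called gene, 1 each. The list medians spread around that of all genes, from -0.33 to 0.40 among the 44 lists with at least 15 tested genes. Acute phase proteins lay highest at 0.40 (23 tested), followed by plasma proteins of hepatocytes at 0.27 (27), neutrophil and myeloid progenitor genes at 0.26 (29), and coagulation and complement factors at 0.25 (42), 38 of the last being above 0. Gluconeogenesis and glucose handling (25 tested) and megakaryocyte and platelet genes (21) also had medians of 0.25. The first 4 medians were also positive under both other scalings, at 0.34 or above. They rested in part on FloxDam_FloxFetus replicate 1: without it they were 0.14, 0.08, 0.16 and 0.12.

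Of these 4 lists, 1 coagulation and complement gene was higher and 1 acute phase gene lower without overlap, and the members named here overlapped. Hamp, the iron hormone hepcidin, read 5.22, 6.60, 4.20 and 4.11 against 3.39, 4.34, 3.64 and 4.6 (1.04 ± 0.61, adjusted p = 0.398). Serpina1e, an antitrypsin gene, read 11.28, 11.27, 11.19 and 11.59 against 9.43, 10.13, 11.58 and 11.05 (0.79 ± 0.342, adjusted p = 0.257). Coagulation factor F5 differed by 0.77 ± 0.373 (adjusted p = 0.308). Replicates 3 and 4 of FloxDam_FloxFetus lay near the heterozygous libraries for Serpina1e, and replicates 1 and 2 lay below. Chil3 and Retnlg, secreted proteins of maturing neutrophils, differed by 0.57 ± 0.349 (adjusted p = 0.421) and 0.50 ± 0.297 (0.401).

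At the low end lay the integrated stress response and tRNA synthetase list, with a median of -0.33 over 31 tested genes, 27 of them below 0. Of these, 13 had an unadjusted p under 0.05 and were lower, and 11 had libraries that did not overlap, where 15.8% and 9.7% of all genes did so. The median was -0.18 with trimmed-mean scaling and -0.25 after quantile normalization of the tested genes, and 0 members were called. Trib3, a pseudokinase induced by amino acid shortage, read 2.77, 2.47, 2.15 and 1.54 against 4.38, 2.84, 3.55 and 3.03 (-1.22 ± 0.436, adjusted p = 0.197). Chac1, a glutathione-degrading enzyme of the same response, read -0.56, -1.71, -1.63 and -0.76 against 2.06, -0.72, 0.52 and 1.20 (-1.93 ± 0.786, adjusted p = 0.238). Trib3 did not overlap between the groups, while Chac1 did.

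Erythroid and heme synthesis genes had a median of -0.29 (32 tested, 29 below 0, 10 at an unadjusted p under 0.05 and lower). Uros, an enzyme of heme synthesis, read 3.82, 3.53, 3.41 and 3.62 against 4.57, 4.31, 3.89 and 4.20 (-0.65 ± 0.242, adjusted p = 0.212), and Tfrc, the transferrin receptor, differed by -0.67 ± 0.287 (0.252). The summed linear level of the list ran from 3180 to 4140 in HetDam_HetFetus and from 4090 to 5630 in FloxDam_FloxFetus. Mitosis and kinetochore genes had a median of -0.29 (36 tested, 35 below 0), with Spc25, a kinetochore protein, at -0.46 ± 0.172 (adjusted p = 0.208). DNA replication genes had a median of -0.19 (36 tested), with Gins1 at -0.59 ± 0.176 (adjusted p = 0.16). In the mitosis and the DNA replication list, 6 genes each were lower at an unadjusted p under 0.05, and 1 each without overlap. Of all genes, 15.8% and 9.7% were. The erythroid, mitosis and DNA replication medians were -0.15, -0.14 and -0.04 with trimmed-mean scaling.

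Components of the translation and respiration machineries were mostly below 0: 72 of 80 cytosolic ribosomal proteins, 73 of 77 mitochondrial ribosomal proteins and 73 of 75 respiratory chain subunits, where 72.9% of all genes were. With the values as deposited, their members were also lower at an unadjusted p under 0.05 in larger shares than the 15.8% of all genes. Lower without overlap were 6 of 80, 11 of 77 and 8 of 75, where 9.7% of all genes were. The first of these shares lay below that of all genes. Cytosolic ribosomal proteins had a median of -0.17 (80 tested, Rpl3 called, 24 lower at an unadjusted p under 0.05), mitochondrial ribosomal proteins -0.23 (77 tested, 24 lower), and nuclear-encoded respiratory chain subunits -0.20 (75 tested, 18 lower). Apart from Rpl3, the largest difference among cytosolic ribosomal proteins was that of Rpl27, at -0.62 ± 0.269 (adjusted p = 0.256). Mrps10 of the mitochondrial ribosome differed by -0.58 ± 0.215 (adjusted p = 0.211) and Atp5j2 of the ATP synthase by -0.36 ± 0.15 (0.242). With trimmed-mean scaling the 3 medians were -0.02, -0.08 and -0.05.

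**Figure D5:**
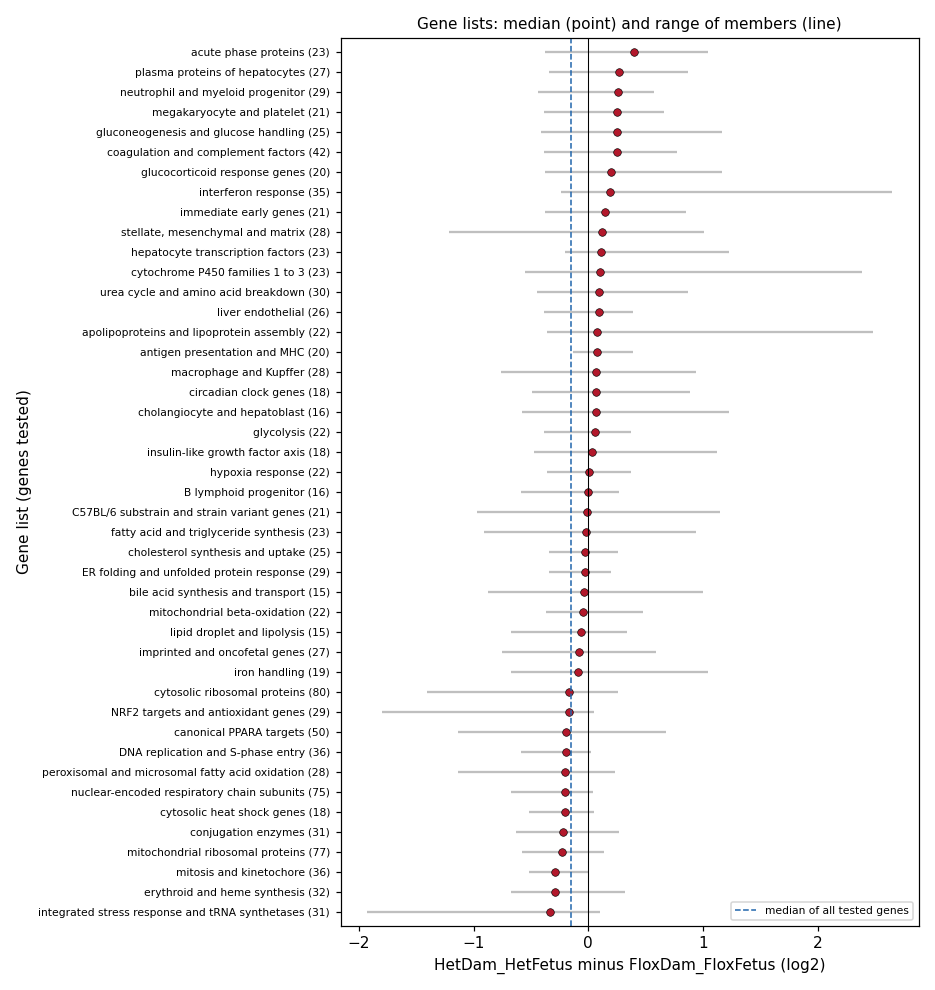
Difference between HetDam_HetFetus and FloxDam_FloxFetus in log2 expression (horizontal axis) for the 44 gene lists with at least 15 tested genes (vertical axis); points are list medians, grey lines the range of members and the dashed line the median of all tested genes. Medians run from -0.33 to 0.40 around -0.15, and 12 of the 44 lie below it.

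Genes that vary between substrains and strains of laboratory mice were listed because the groups come from separate colonies. Of 21 tested, 0 were called, and the median was -0.01. At an unadjusted p under 0.05, 3 were higher and 5 lower, where 0.72% and 15.8% of all genes were. Wdfy1, an endosomal adaptor, read 0.19, -0.60, 0.06 and 0.23 against 0.68, 0.64, 1.22 and 1.21, with no overlap (-0.97 ± 0.203, adjusted p = 0.0604), and was called with replicate number as a block (adjusted p = 0.0404) but under neither other scaling. Ide, the insulin-degrading enzyme, differed by -0.53 ± 0.195 (adjusted p = 0.211), and Nnt, also on the list, by -0.07 ± 0.35 (0.947). Erdr1, a gene at the tip of the sex chromosomes, has several entries, and the tested Erdr1_1 read 4.12, 3.79, 3.75 and 3.52 against 3.68, 3.52, 1.94 and 1.81 (1.06 ± 0.37, adjusted p = 0.191). The low floxed values were those of replicates 3 and 4. Erdr1_2 differed by 1.16 ± 0.356 (adjusted p = 0.164). Both entries are among the 3 higher ones, so these are not 3 separate genes.

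Genes just outside the threshold, named after their values were seen, included protein-coding genes of the liver. Igfbp1, an insulin-like growth factor binding protein that the fasted liver secretes, read 10.47, 10.22, 10.92 and 10.73 against 9.39, 9.44, 9.32 and 9.72. The groups did not overlap, and the difference of 1.12 ± 0.254 had an adjusted p of 0.0819, while the experimental groups differed by 1.35 ± 0.254 (adjusted p = 0.0173). Irs2, an insulin receptor substrate, was the other member of its list with a large difference (1.01 ± 0.591, adjusted p = 0.395). Camk2b, a calmodulin-dependent kinase, read 1.40, 1.00, 1.13 and 1.44 against -0.30, -0.58, 0.03 and -0.05 (1.47 ± 0.317, adjusted p = 0.0628). It was called with trimmed-mean scaling (1.62, adjusted p = 0.0318) and with replicate number as a block (0.033).

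Armcx5 read -0.28, -0.57, 0.10 and -0.39 against 0.55, 0.38, 0.58 and 0.75 (-0.85 ± 0.172, adjusted p = 0.0549), and with the replicate block it was called (0.0225), but under neither other scaling. Rnmt, the mRNA cap methyltransferase, differed by -0.61 ± 0.122 (adjusted p = 0.0549), and Ciapin1, of cytosolic iron-sulfur cluster assembly, by -0.61 ± 0.128 (0.0596). Both also had libraries that did not overlap. Armcx5 and Rnmt had the opposite sign between the experimental groups, at 0.32 ± 0.172 and 0.30 ± 0.122.

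Among immune and other cell types, Ifi44 of the interferon response read 1.06, -0.17, 0.22 and -0.22 against -2.89, -3.28, -1.51 and -2.06, with no overlap, though its difference of 2.65 ± 0.845 was not called (adjusted p = 0.17). The interferon list as a whole had a median of 0.19 and 0 called of 35, with 1 higher at an unadjusted p under 0.05. Clec4f, a receptor of Kupffer cells, differed by 0.94 ± 0.332 (adjusted p = 0.192), and Timp1, a metalloproteinase inhibitor of stromal cells, by -1.21 ± 0.316 (0.127). All 8 libraries carried the hepatocyte products Alb (14.62 to 16.15) and Afp (12.74 to 13.90) at high level. HetDam_HetFetus replicate 4 stood apart in 2 skeletal muscle genes, Acta1 at 5.68 and Ckm at 4.25, where the other 7 libraries lay at 1.21 or below for Acta1 and 0.32 or below for Ckm. The summed skeletal muscle level reached 181 in that group, against at most 24.1 in FloxDam_FloxFetus, and its part in the results was not tested. Without that library 9 genes were called, 8 of them among the 16.

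The number of called genes rested on single libraries. It was 35 without HetDam_HetFetus replicate 1, 9 without replicate 3, and 8 without FloxDam_FloxFetus replicate 1. At the spread of these libraries, the 95% interval of 83.1% of tested genes lay within 1 of 0 on the log2 scale, so a difference of 2-fold or more lay outside it for most genes. The intervals are not adjusted for the number of genes tested, so differences above 2-fold could still go uncalled. Igfbp1 (1.12 ± 0.254) and Prss34 (-2.31 ± 0.476) were such genes. Smaller differences were not detectable for many genes. Xist and Ddx3y matched the sex label in 8 of 8 libraries.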

How the data were processed

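RNA libraries of 20 fetal livers (stranded poly(A) kit, single reads of 75 bases, per the labels' protocols) were processed with bcl2fastq 2.17.1.14 and Partek 7.0 on GRCm38.p6, per the submitters' processing notes. The authors deposited 1 table of log2 values, with blanks where a gene has none. The quantity behind the logarithm, the aligner, how reads were counted and whether strand was used are not given in those notes. Every library has nearly the same quantiles over its listed values, as quantile normalization leaves them. Read depth is unknown, so no count test, counting interval or detection floor is given.

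A gene was tested with a log2 value of at least 0 in at least 4 libraries. One model held all 20 libraries and 5 group means (limma 3.58.1, R 4.3.3, trended eBayes, 15 residual and 4.09 prior degrees of freedom). P-values are two-sided, with Benjamini-Hochberg adjustment over all genes of a comparison and calls at an adjusted p under 0.05. Errors of differences are standard errors. Each fetus was counted as a replicate, and p-values measure the spread between fetuses, though some fetuses share a number that may mark a litter. These are FloxDam_FloxFetus replicates 3 and 4, KODam_HetFetus replicates 1 and 2, and KODam_KOFetus replicates 1 and 2. Deviations of the FloxDam_FloxFetus pair correlated at 0.323, against at most 0.141 for other pairs of that group. The consensus correlation over all fetuses sharing such a number was 0.568. The titles give each group replicates 1 to 4. Same-numbered control libraries deviated together from their group means (correlations 0.239, 0.323, 0.261 and 0.127), so a fit with replicate number as a block was run. The pairing comes from the titles and these correlations alone. Correlations of differently numbered libraries are not given for comparison. In both control groups replicate 1 is labelled female and replicate 2 male. Transcripts were taken from GENCODE M21 and aligned with blastn 2.17.0, and positions from the RefSeq annotation of GRCm38.p6, which matched 11237 of the 11807 genes that met the minimum.

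The fit recovered 24%, 74%, 92% and 100% of simulated differences of 0.5, 1, 2 and 4 for HetDam_HetFetus minus FloxDam_FloxFetus (50 genes each among 11634). It made 19 false calls among 164, a larger share than the 0.05 that the adjustment aims at. Simulated noise was independent between fetuses. The simulation gave 164 calls against 16 in the data, which loosens the unadjusted threshold, so recovery in the data may be lower. Named genes were Ppara and Cpt2, called genes with a curated symbol and no overlap (up to 12 per direction), and per gene list up to 4 called genes or the 2 with the largest absolute difference. The other genes were named after their values were seen, and the text gives part of them. The comparison, gene lists and alternatives were chosen with earlier results of these data known. Results for some genes are not reported here.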

Additional observations from a re-analysis of the deposited data

Results flagged for a closer look

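Among 170 combinations of a reported gene and a group of 4 libraries, 8 (4.71%) held a library whose gap to the nearest other exceeded Dixon's 95% critical share of the group's range, and chance gives about 1 in 20. Acta1 stood at 5.68 in HetDam_HetFetus replicate 4, with the others between -0.19 and -0.08. HetDam_HetFetus replicate 4 was also low for Cd59a, at 4.55 against 4.96 to 5.04. HetDam_HetFetus replicate 2 was high for Cpa3, at -0.08 against -1.10 to -0.97, and low for Clec4f, at 4.30 against 5.33 to 5.51. Atp5j2 was low in HetDam_HetFetus replicate 3, at 7.58 against 7.90 to 7.91. FloxDam_FloxFetus replicate 2 was low for Prss34, at 0.55 against 1.67 to 1.79, and high for Gm9056, at 0.88 against 0.24 to 0.32. Rps18-ps1 was low in KODam_HetFetus replicate 1, at 0.05 against 0.56 to 0.66.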

How the results depend on the processing

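Over the alternatives, 16 genes were called between the control groups as deposited (43.8% of them higher), 16 with trimmed-mean scaling (62.5% higher, median of all genes -0.002, 1163 genes at an unadjusted p under 0.05) and 12 after quantile normalization of the tested genes (75% higher, median -0.01, 999 at an unadjusted p under 0.05, 10 of the 16 called again). Between the experimental groups these scalings called 742 higher in the first case, and 1926 genes with 1053 higher in the second. Without a filter, 2987 control genes had an unadjusted p under 0.05, and 433 experimental genes were called (160 higher). Requiring a log2 value of 2 left 5 control calls, all among the 16 (3 higher, 60%), 1189 at an unadjusted p under 0.05 and 4 shared genes. A pseudocount of 0.1 or sex as a covariate gave 41.2% higher. A pseudocount of 1 called 10 (60% higher, 9 of the 16), and one of 4 called 7 (4 higher, 57.1%, 6 of the 16), 735 higher between the experimental groups and 2 in the test of the difference. With the unexplained number of the descriptions as a random block, 8 were called, all among the 16 (62.5% higher), the experimental groups gave 11 (4 higher) and 4 were shared. Fitting only the groups compared gave 53.8% higher and 8 of the 16 again, with 10 experimental calls (6 higher) and 3 shared. Without the mean-variance trend 26 were called (30.8% higher). Array weights called 130 (17 higher, 13.1%), 3390 between the experimental groups (1452 higher), 31 shared and 556 in the test of the difference. Blanks set to the lowest value gave 29.4% higher.

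The replicate block called 14 genes (50% higher), 11 of the 16 among them, and 875 higher between the experimental groups. The next 2 alternatives were chosen after seeing the data. With trimmed-mean scaling added, the block called 14 (71.4% higher, median -0.002, 1297 at an unadjusted p under 0.05) and 1919 between the experimental groups (942 higher). The block within the groups compared called 4, all among the 16 (3 higher, 75%), 4 between the experimental groups (3 higher) and 1 shared. The calls not kept included Gm12906 (adjusted p = 0.0885), Cd59b (0.0592), Mcpt8 (0.0592) and Gm21451 (0.086), while Rpl3, Rpl3-ps1 and Gm16867 were called under all 24 alternatives run for them and Gm27177 under all 23 in which it was tested, the minimum of 2 leaving it out.

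Leaving out 1 library at a time gave 8 to 35 control calls (5 to 7 higher, 20% to 63.6% higher, 8 to 16 of the 16 again), 1092 to 2212 genes at an unadjusted p under 0.05 and medians of -0.177 to -0.114. It gave 11 to 2624 experimental calls (5 to 1347 higher), 4 to 11 shared genes and 0 to 421 in the test of the difference. Without HetDam_HetFetus replicate 4, the differences of Acta1 (0.83) and Ckm (0.96), neither called, turned to -0.63 and -0.45, and over all single libraries left out they reached 1.33 and 1.65. Where a value changed, the cause was not tested. Depth is unknown and limits low genes to an unknown extent.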
